A study of Ovis aries with 16 samples.

Results

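The UCP1 transcript ENSOART00020019420 was followed in the perirenal adipose tissue of near-term sheep fetuses. It was taken by the identifier that the study gives for UCP1 among its adipocyte markers. It is 1 of the 35219 transcripts in the deposited table. Fetuses were growth-restricted males (MFGR), control males (MC), growth-restricted females (FFGR) and control females (FC), with 4 fetuses and 1 RNAseq library each in every group. Growth restriction was produced by keeping the pregnant ewes at raised ambient temperature for part of gestation, which causes placental insufficiency, and the ewes of the controls were kept at a normal temperature and pair-fed to the heated ewes. Every fetus of a growth-restricted group therefore shares the heat exposure of its mother, and the effects of heat and of growth restriction cannot be told apart. The depot was collected at term, and the RNA came from what was left after parts were taken for cell isolation and fixation. Its cells were not sorted, so each value is an average over all cells of the piece used.

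UCP1 is a carrier protein of the inner mitochondrial membrane of brown adipocytes. It lets protons return to the matrix without making ATP, so that the energy of fuel oxidation is released as heat. In sheep the perirenal depot holds much of the brown fat of the fetus, and UCP1 there rises towards birth, when the lamb has to keep itself warm, and is lost again after birth as the depot takes on the features of white fat.

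UCP1 was an abundant transcript in all 16 libraries. Levels are given as TPM, transcript abundances that are corrected for transcript length and sum to 1000000 in each library. UCP1 lay between 1317 and 4430 TPM, a 3.37-fold range, with a median of 2218 and a mean of 2332 ± 859 TPM (SD, n = 16). It made up 0.132% to 0.443% of the TPM of a library. Its rank in the library, counted from the most abundant transcript, was between 16 and 104, and between 6 and 93 once the 11 mitochondrial transcripts named by the study were set aside. By its mean over all libraries it held rank 44. TPM keep no read counts, so the depth of the libraries is unknown and the errors given below are those between fetuses.

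The markers of adipose tissue that the study lists were present beside it. The mature adipocyte markers ADIPOQ, which encodes the hormone adiponectin, and FABP4, a fatty acid carrier, averaged 2383 and 3984 TPM over the 16 libraries. CIDEA, a lipid droplet protein used as a brown fat marker, has a pair of transcripts in the study's table. The more abundant one (ENSOART00020036590), called CIDEA below, averaged 93.0 TPM and the minor one (ENSOART00020036602) 13.3 TPM. Leptin (gene ob), a hormone of white and mature adipocytes, averaged 23.5 TPM. HOXC9, a developmental regulator that the study's table places with the markers, averaged 6.49 TPM. The preadipocyte marker THY1, a surface glycoprotein, likewise has a pair of transcripts there. The one with the higher mean over the 16 libraries (ENSOART00020024826), called THY1 below, averaged 31.5 TPM. The other (ENSOART00020024873), called the minor THY1 transcript below, averaged 18.5 TPM. This order held in males only. The minor one averaged 2.60 TPM in MFGR and 7.10 TPM in MC, against 23.3 and 56.3 TPM for THY1. In females it was the higher of the pair, with 29.0 TPM in FFGR and 35.4 TPM in FC, against 20.2 and 26.3 TPM for THY1. On this length-corrected scale the mean level of UCP1 was 25.1 times that of CIDEA and 99.2 times that of leptin. Markers of muscle, adrenal, kidney and blood were not analysed here.

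Between 20153 and 21917 transcripts were above 0 per library. The mitochondrial transcripts took 29.2% to 37.7% of the TPM in MFGR, 35.0% to 43.5% in MC, 25.4% to 36.8% in FFGR and 28.8% to 38.8% in FC libraries, and TPM of all other transcripts are what this share leaves.

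The 4 groups did not separate by UCP1. The MFGR fetuses, numbered 1 to 4, had 2292, 2889, 1520 and 2144 TPM, a mean of 2211 ± 562 (SD, n = 4). The MC fetuses had 1548, 3366, 1317 and 1596 TPM, a mean of 1957 ± 947 (SD, n = 4). Among males, 3 MC fetuses lay within a narrow band at the low end and MC 2 lay far above them and above every MFGR fetus, so the groups overlapped.

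The FFGR fetuses had 1655, 2327, 2378 and 3441 TPM, a mean of 2450 ± 738 (SD, n = 4). The FC fetuses had 1839, 1803, 4430 and 2768 TPM, a mean of 2710 ± 1231 (SD, n = 4). Here FC 3 was the highest library of the series, and every FFGR fetus but FFGR 1 lay within the range of FC.

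By mean level the order was FC, FFGR, MFGR and MC, and the largest group mean was 1.39 times the smallest. No neighbours in this order differed beyond their spread. The ranges of all 4 groups overlapped, and the 5 libraries above 2500 TPM (FC 3, FFGR 4, MC 2, MFGR 2 and FC 4) came from all 4 groups. The coefficient of variation between fetuses was 25.4% in MFGR against 48.4% in MC, and 30.1% in FFGR against 45.4% in FC. This difference in spread was not tested.

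**Figure D1:**
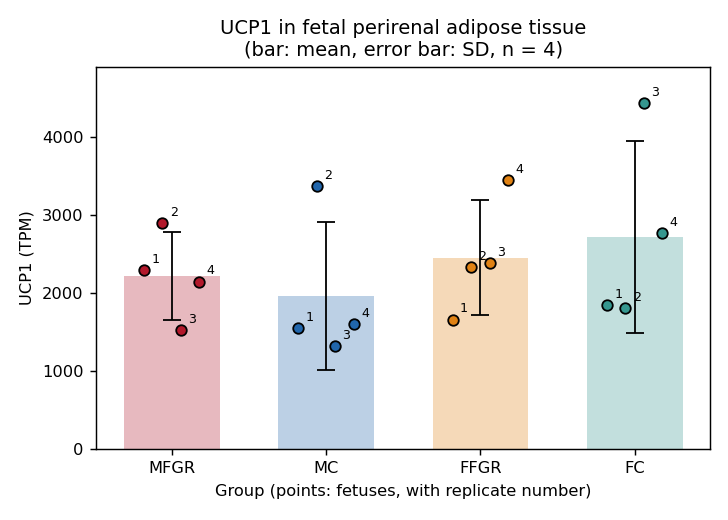
UCP1 in TPM (vertical axis, linear from 0) in the 4 groups, with 1 numbered point per fetus, a bar for the group mean and an error bar for the SD (n = 4). The groups overlap throughout, with means of 2211 (MFGR), 1957 (MC), 2450 (FFGR) and 2710 TPM (FC), and FC 3 at 4430 and MC 2 at 3366 TPM lie well above the others of their groups.

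The first question of the design was whether growth restriction alters expression in each sex. For UCP1 no difference was detected in either. The test was limma on log2(TPM + 1), fitted over the 4574 transcripts that reached 20 TPM in 3 or more libraries, with p adjusted by Benjamini-Hochberg over all of them and a call at an adjusted p under 0.05 and a fold above 1.5. In MFGR against MC the log2 fold change was 0.24 ± 0.34 (SE), a 1.19-fold difference with a 95% interval of 0.721 to 1.95-fold (adjusted p = 0.75). In this comparison 21 transcripts were called, or 0.459% of those tested. In FFGR against FC it was −0.09 ± 0.34 (SE), 0.938-fold with an interval of 0.571 to 1.54-fold (adjusted p = 0.979), and limma called 0 transcripts, with 337 at an unadjusted p under 0.05. In bulk tissue, the number of brown adipocytes and the UCP1 RNA in each of them cannot be told apart.

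The direction in FFGR against FC depended on single fetuses. It was −0.09 with all libraries and became 0.18 without FC 3 and 0.08 without FFGR 1. The male difference was 0.54 without MC 2 (adjusted p = 0.325), 0.07 with quantile normalization (adjusted p = 0.956) and 0.12 in TPM rescaled without the mitochondrial transcripts (adjusted p = 0.869).

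The second question was whether the sexes differ. In MC against FC the log2 fold change of UCP1 was −0.47 ± 0.34 (SE), 0.720-fold with an interval of 0.438 to 1.19-fold (adjusted p = 0.272). In MFGR against FFGR it was −0.14 ± 0.34 (SE), 0.910-fold with an interval of 0.553 to 1.5-fold (adjusted p = 0.767). Among all transcripts tested, 28.8% were called in MC against FC and 30.1% in MFGR against FFGR, while UCP1 was called in neither. Comparisons that name the same group share its 4 libraries. The median transcript was itself shifted by −0.20 in MC against FC and by −0.19 in MFGR against FFGR, and relative to that shift UCP1 lay at −0.27 and 0.06. The sex difference among controls was −0.77 without MC 2 (adjusted p = 0.061) and −0.20 without FC 3 (adjusted p = 0.65).

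Averaged over both conditions, males against females gave −0.30 ± 0.24 (SE) on the log2 scale, 0.810-fold with an interval of 0.570 to 1.15-fold (adjusted p = 0.289), in a comparison that called 30.3% of transcripts. The median transcript lay at −0.18 here, and with median-of-ratios scaling UCP1 was at −0.11 (adjusted p = 0.739). Averaged over both sexes, growth-restricted against control fetuses gave 0.08 ± 0.24 (SE), 1.05-fold with an interval of 0.742 to 1.5-fold (adjusted p = 0.926), with 0.0437% called. The interaction, which asks whether the response to growth restriction differs between males and females, was 0.34 ± 0.48 (SE) with an interval of −0.68 to 1.35 (adjusted p = 0.796). It was 0.07 without FC 3 and 0.63 without MC 2. These intervals are wide, and a p that misses the threshold does not show that the groups are alike.

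**Figure D2:**
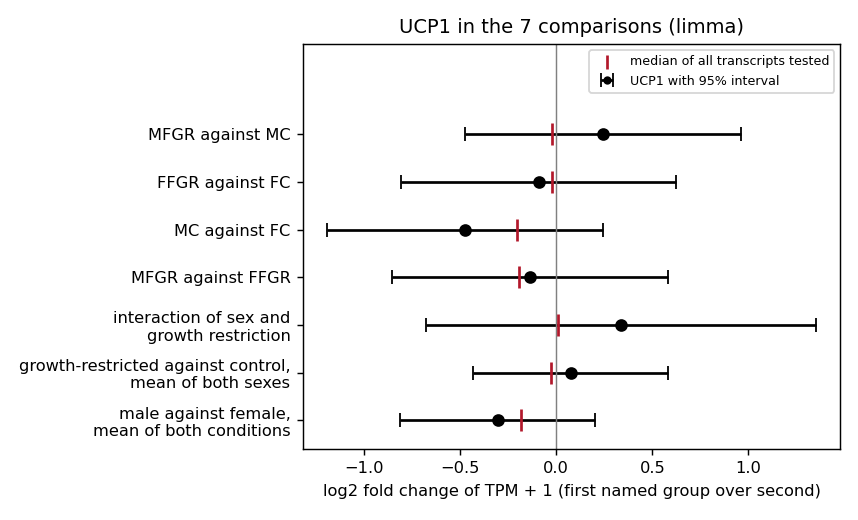
Log2 fold change of UCP1 (horizontal axis, TPM + 1) in the 7 comparisons, as black points with 95% intervals from limma, and the median of all 4574 transcripts tested as red ticks. Every interval includes 0, and the median of all transcripts lies at −0.20 in MC against FC and −0.19 in MFGR against FFGR.

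UCP1 varied more between fetuses of a group than most transcripts did. Its residual SD within groups was 0.517 on the log2 scale, against a median of 0.246 over the transcripts tested, and 86.2% of them had a smaller one. Among the 125 transcripts with a mean of at least 1000 TPM it had rank 11 from the largest, and the median of these was 0.230. The standard error of each UCP1 fold change was accordingly 1.96 times the median one. Differences between the 4 group means held 13.7% of the variance of UCP1, against a median of 53.1% over the transcripts tested, and 91.9% of these had a larger share. For UCP1, therefore, most of the variation in the series was between fetuses of the same sex and treatment.

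The level of UCP1 was also set against other markers within each library, which removes the part of the spread that 2 transcripts share. Where they share little, the ratio takes on the spread of the other marker as well. In FC the SD on the log2 scale was 0.611 for UCP1, 0.401 for its ratio to FABP4 and 0.976 for its ratio to ADIPOQ. Of 42 permutation tests (UCP1 itself and 5 ratios in 7 comparisons), 5 had an unadjusted p under 0.05 and 0 an adjusted p under 0.05. The ratio to FABP4 stood out among them. In MFGR 1 to 4 it was 0.228, 0.629, 0.473 and 0.347, a mean of 0.419 ± 0.172, and in MC 1 to 4 it was 0.606, 0.841, 0.930 and 0.882, a mean of 0.815 ± 0.144 (SD, n = 4 each). All MFGR fetuses but MFGR 2 lay below all MC fetuses.

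In females the ratio of UCP1 to FABP4 ran the other way. It was 0.919, 0.832, 1.06 and 1.53 in FFGR 1 to 4, a mean of 1.09 ± 0.310, and 0.506, 0.820, 0.427 and 0.600 in FC 1 to 4, a mean of 0.588 ± 0.170 (SD, n = 4 each). The FFGR and FC fetuses did not overlap. Each FFGR fetus also lay above each MFGR fetus.

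On the log2 scale the ratio differed by −1.04 in MFGR against MC (p = 0.0571) and by 0.89 in FFGR against FC (p = 0.0286), both by exact permutation tests, two-sided, where 0.0286 is the smallest p that 4 against 4 fetuses can give. Between the sexes it differed by 0.49 in MC against FC (p = 0.0571) and by −1.43 in MFGR against FFGR (p = 0.0286), by the same exact tests. All 4 had an adjusted p of 0.24. The interaction of sex and growth restriction in this ratio was −1.93 (p = 0.00122, exact permutation of sex within condition, adjusted p = 0.0514 over the 42 tests). This p exchanges males and females within each condition, so it also takes the sexes to be alike there. The interaction did not pass the threshold, and it stayed between −2.15 and −1.66 when each fetus was left out. Its adjusted p was 0.0343 without MC 1 or without FC 2 and 0.171 without FFGR 4.

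FABP4, the other member of this ratio, varied more between group means than UCP1. It averaged 6015 ± 2962 TPM in MFGR and 2445 ± 1140 TPM in MC, and 2271 ± 408 TPM in FFGR and 5205 ± 3582 TPM in FC (SD, n = 4 each). Its log2 fold change was 1.28 ± 0.44 (SE) in MFGR against MC (limma, adjusted p = 0.144) and −0.98 ± 0.44 (SE) in FFGR against FC (adjusted p = 0.652), with an interaction of 2.26 ± 0.62 (SE, adjusted p = 0.272). The limma test called 0 transcripts for an interaction, with 511 at an unadjusted p under 0.05. FABP4 was higher in MFGR than in FFGR by 1.29 ± 0.44 (SE) on the log2 scale (adjusted p = 0.0257).

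The ratio of UCP1 to leptin was 60.2, 252, 100.2 and 67.2 in MFGR 1 to 4, and 82.4, 70.3, 53.5 and 61.7 in MC 1 to 4. It was 106, 138, 227 and 346 in FFGR 1 to 4, and 76.9, 100.9, 95.8 and 129 in FC 1 to 4. The growth-restricted groups reached higher ratios than the controls of their sex but overlapped with them. The mean difference of growth-restricted against control fetuses was 0.75 on the log2 scale (p = 0.0237, exact permutation, adjusted p = 0.24), and that of male against female fetuses was −0.73 (p = 0.0388, exact permutation, adjusted p = 0.24). Leptin itself was at −0.64 ± 0.27 (SE) for growth restriction over both sexes (limma, adjusted p = 0.313), where UCP1 was at 0.08. For male against female, leptin was at 0.40 ± 0.27 (SE, limma, adjusted p = 0.224), where UCP1 was at −0.30.

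The other 3 ratios gave no unadjusted p under 0.05 in any comparison. UCP1 was 1.10 ± 0.231 times ADIPOQ in MFGR, 0.859 ± 0.451 times in MC, 0.939 ± 0.319 times in FFGR and 1.24 ± 0.910 times in FC (SD, n = 4 each). It was 29.0 ± 6.58 times CIDEA in MFGR, 24.1 ± 9.28 times in MC, 19.96 ± 5.02 times in FFGR and 31.1 ± 19.5 times in FC. Relative to the sum of the 11 mitochondrial transcripts it was 0.662% ± 0.179 in MFGR, 0.488% ± 0.192 in MC, 0.764% ± 0.1998 in FFGR and 0.827% ± 0.409 in FC. CIDEA itself was lower in MFGR than in FFGR, by −0.67 ± 0.14 (SE) on the log2 scale (limma, adjusted p = 0.0013), where UCP1 was at −0.14. The minor CIDEA transcript was at −0.26 (limma with a 1 TPM filter, adjusted p = 0.504). Of all transcripts tested, 32.8% were lower in this comparison at an adjusted p under 0.05. The ratio of UCP1 to CIDEA differed by 0.54 on the log2 scale (p = 0.0571, exact permutation, adjusted p = 0.24).

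**Figure D3:**
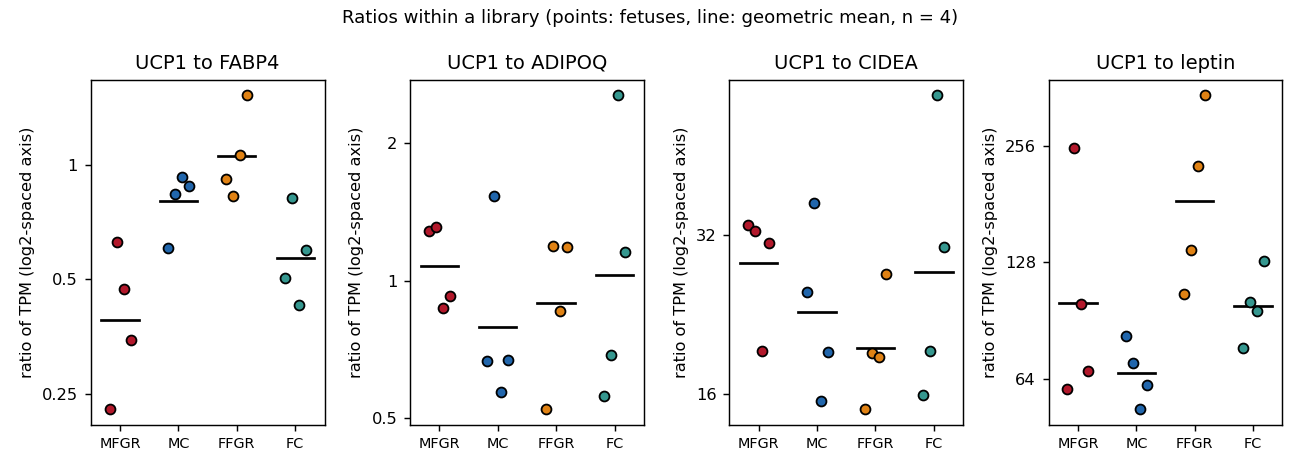
Ratio of UCP1 to FABP4, ADIPOQ, CIDEA and leptin within each library, on log2-spaced axes, with 1 point per fetus and a line at the geometric mean of the group (n = 4). In the FABP4 panel the FFGR points (0.832 to 1.53) lie above all FC points (0.427 to 0.820), while the MFGR points (0.228 to 0.629) lie mostly below the MC points (0.606 to 0.930).

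Which transcripts varied with UCP1 from fetus to fetus was described by correlations over the 16 libraries. Since many transcripts differ by sex, the group mean of log2(TPM + 1) was first taken off each value, and p came from permutations within groups, adjusted over the 19 other named transcripts. All values of a library share its total and its composition. None of the 19 had an adjusted p under 0.05 and 3 had an unadjusted p under 0.05, namely FABP4, THY1 and the minor CIDEA transcript.

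Over all 16 libraries FABP4 had the highest correlation with UCP1 of the 19. Pearson's r was 0.76 (permutation p = 0.00378, adjusted p = 0.0609) and Spearman's rho was 0.73 (permutation p = 0.00571, adjusted p = 0.0716). In the 8 male libraries r was 0.70 (exact permutation p = 0.0764) and in the 8 female libraries 0.82 (exact permutation p = 0.0243), and it was positive within all 4 groups. Without MC 3 and FC 3, the libraries farthest from the median of UCP1, r was 0.60 (permutation p = 0.0528). The libraries with the largest deviation of UCP1 from their group mean were MC 2 and FC 3. Without them r was 0.49 (permutation p = 0.119, adjusted p = 0.691), so its size depended on them in part. In MFGR and FFGR, which hold neither, r was 0.45 and 0.47, against 0.90 in MC and 0.95 in FC. Leaving out MC 2 and FC 3 was chosen after the data were seen.

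THY1, the preadipocyte marker, had the lowest over the 16 libraries. Its r was −0.69 (permutation p = 0.00641, adjusted p = 0.0609) and its rho −0.71 (permutation p = 0.00754, adjusted p = 0.0716). In males r was −0.89 (exact permutation p = 0.0226) and in females −0.63 (exact permutation p = 0.123), with a negative sign in all 4 groups. Without MC 3 and FC 3 it was −0.58 (permutation p = 0.0546). Without MC 2 and FC 3 it was −0.50 (permutation p = 0.185, adjusted p = 0.691), so its size too depended on them in part. In MFGR and FFGR, which hold neither, r was −0.80 and −0.35, against −0.998 in MC and −0.96 in FC. MC 2, with the most UCP1 of the MC group, had 33.1 TPM of THY1 where the other MC fetuses had 60.9 to 68.1 TPM, and FC 3 had 10.9 TPM where the other FC fetuses had 23.7 to 40.4 TPM.

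The minor THY1 transcript had an r of −0.56 (permutation p = 0.053, adjusted p = 0.252), and the minor CIDEA transcript one of −0.59 (permutation p = 0.0335, adjusted p = 0.212). CIDEA, the other brown fat marker of the study, had an r of −0.02, with 0.41 in males and −0.48 in females. ADIPOQ had an r of −0.38, with 0.15 in males and −0.64 in females. Leptin had an r of 0.39 and HOXC9 one of −0.18. None of these 6 passed the adjustment, and the sign for CIDEA changed with the settings, as did that for leptin, at −0.21 without MC 2 and FC 3.

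**Figure D4:**
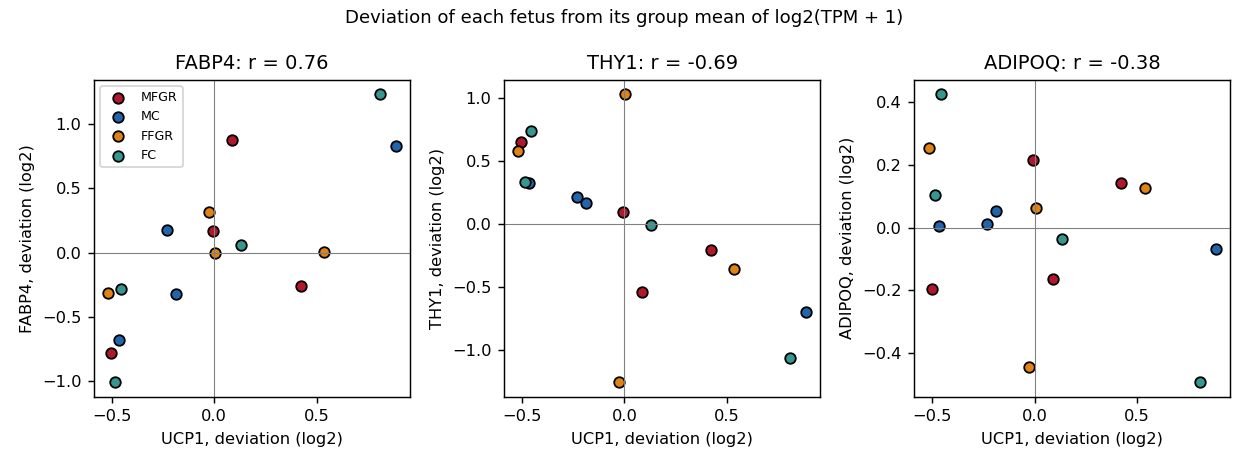
Deviation of each of the 16 fetuses from its group mean of log2(TPM + 1), for UCP1 (horizontal axes) against FABP4, THY1 and ADIPOQ (vertical axes), coloured by group. The points run upward for FABP4 (r = 0.76) and downward for THY1 (r = −0.69), for ADIPOQ r is −0.38, and MC 2 and FC 3 are the 2 points far to the right.

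UCP1 works in the mitochondrial inner membrane, and the mitochondrial transcripts encode subunits of complexes I, III, IV and V of the respiratory chain and ATP synthase beside it. Of the 11 named, 9 had a positive r with UCP1, where 42.4% of all other transcripts tested did. Their r ran from −0.06 for ATP6 to 0.50 for COX2, with a median of 0.28. The smallest adjusted p among them over the 16 libraries was 0.257. By sex, r ran from 0.03 (ND6) to 0.79 (ND2) in males and from −0.27 (ATP6) to 0.59 (ND6) in females. COX1, with an r of 0.47 over the 16 libraries, was above FABP4 without MC 3 and FC 3, at 0.68 (permutation p = 0.0228, adjusted p = 0.346), and without MC 2 and FC 3, at 0.63 (permutation p = 0.0584, adjusted p = 0.691). ND2, with an r of 0.33, was above FABP4 in the male libraries, at 0.79 (exact permutation p = 0.0399, adjusted p = 0.33), and was at 0.06 in the female ones. UCP1 had an r of 0.31 with the share of TPM held by these transcripts, and of −0.21 with the number of transcripts above 0. With both of these also removed, r was 0.76 for FABP4 and −0.78 for THY1.

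Against all transcripts tested, FABP4 and THY1 lay toward the ends of the range without being at them. Of the other 4573 transcripts, 78 had an r with UCP1 at least as high as that of FABP4, FABP4 included, or 1.71%. For THY1, 152 had one as low or lower, or 3.32%. The median r was −0.09 and 42.4% were positive. The transcript most like UCP1 was ENSOART00020000683, with an r of 0.98 over the 16 libraries, 0.98 in males and 0.98 in females.

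ENSOART00020000683 had 88.5, 93.2, 54.7 and 87.5 TPM in MFGR 1 to 4 and 66.5, 128, 55.2 and 65.5 TPM in MC 1 to 4. It had 57.1, 84.97, 72.3 and 118 TPM in FFGR 1 to 4 and 69.6, 60.1, 161 and 89.4 TPM in FC 1 to 4. MC 2, FFGR 4 and FC 3 were its highest libraries, as they were for UCP1. UCP1 was between 23.3 and 32.9 times its level in every library. Next came ENSOART00020025435 with an r of 0.93. The lowest were ENSOART00020010369 with −0.90 and ENSOART00020027402 with −0.89. These 4 were taken because they lie at the ends of 4573 values, so their r is a description with no test, and the deposited table gives no gene names for them.

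**Figure D5:**
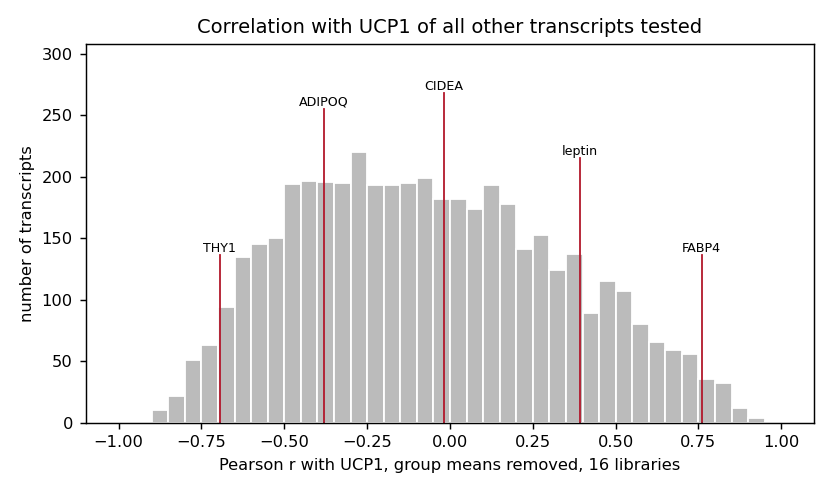
Number of transcripts (vertical axis) by Pearson r with UCP1 over 16 libraries with group means removed (horizontal axis, bins of width 0.05), for the other 4573 transcripts tested. The red lines mark FABP4 (0.76), leptin (ob-201, 0.39), CIDEA (−0.02), ADIPOQ (−0.38) and THY1 (−0.69), and the median of all is −0.09.

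The thermogenesis transcripts that the study listed as lower in control males, were set beside UCP1, which is not among them. The study picked this list on these libraries, so its direction in MC against FC is not independent evidence. In MC against FC, 16 of its 16 tested members fell (of 17 listed, counted by adjusted p under 0.05 alone, whatever the fold), with a median log2 fold change of −1.27, where 32.6% of all transcripts fell with a median of −0.20. In MFGR against FFGR, 15 of 16 fell with a median of −0.90, where 32.8% of all fell with a median of −0.19. UCP1 was at −0.47 and −0.14 in these comparisons and passed the test in neither.

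With growth restriction few members of the thermogenesis list passed the test. In MFGR against MC, 1 member rose and 1 fell, with a median of 0.10, where 0.284% of all transcripts rose and 0.24% fell. In FFGR against FC 0 members rose or fell by limma, as for all transcripts, with a median of −0.14. Over fetuses, 7 of the 16 members had a positive r with UCP1, with a median of −0.07. Of all other transcripts tested, 42.4% had a positive r, with a median of −0.09, so the list was close to that share.

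The 4 transcripts of PPAR signaling, the nuclear receptor pathway that drives adipocyte genes, were listed by the study as higher in MFGR than in MC and include FABP4. In MFGR against MC 1 of 4 rose, with a median log2 fold change of 1.26, where 0.284% of all transcripts rose with a median of −0.02. UCP1, known in rodents as a target of this pathway, was at 0.24. In MFGR against FFGR 3 of 4 rose, with a median of 0.74, where 12% of all transcripts rose with a median of −0.19. All 4 had a positive r with UCP1, from 0.05 to 0.76, with a median of 0.46, where 42.4% of all other transcripts tested had a positive r. The highest of the 4 was FABP4, given above. The study chose this list too on these libraries.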

How the data were processed

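RNA of perirenal adipose tissue from 16 fetuses, 4 per group, was sequenced as 1 library per fetus. Per the labels, the authors used FastQC 0.11.9 and Salmon. The methods name Salmon indices for sheep (Ensembl annotation of Oar_rambouillet_v1.0), cow, mouse and human. The authors deposited TPM for 35219 transcripts with sheep identifiers, and the table was taken as the sheep quantification. TPM keep no counts, so no count test was run. Sequencing batches are not given in the sources used here, and p-values measure the spread between fetuses.

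R 4.3.3 and limma 3.58.1 were used on log2(TPM + 1), with 1 mean per group and a prior variance that follows the mean, over the 4574 transcripts that reached 20 TPM in 3 or more libraries. Fold changes on this scale are understated for low transcripts. Ratios and correlations were tested by permutation (scipy 1.17.1, numpy 2.4.6), exactly, or with 100000 draws over the 16 libraries. The scripts were tested on simulated data.

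The transcripts named were those of the study's tables of adipocyte markers and mitochondrial genes, and the 2 highest and 2 lowest in correlation with UCP1. TCF21 was left out because the study prints it with the identifier of the minor CIDEA transcript. Lists that need gene names were not used here, since 0 transcript identifiers matched the gene table at hand. Members and lists were chosen with earlier results of these data known. Alternatives tried were another pseudocount, other filters, scalings and variance models, library weights, fewer libraries, the replicate number as a block and leaving out each library. Correlations without the 2 libraries of largest UCP1 deviation were added after seeing the data.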

Additional observations from a re-analysis of the deposited data

Results flagged for a closer look

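UCP1 in MC 2 stood apart from the other MC fetuses, at 3366 TPM. Its gap to the nearest MC fetus was 0.864 of the whole range of the group, above the critical value that Dixon's test sets for 4 samples, and 0.795 on the log2 scale, below that value. The same fetus stood apart in the ratio of UCP1 to ADIPOQ, at 1.53 (gap 0.897 of the range), and in the ratio of UCP1 to the summed mitochondrial transcripts, at 0.00774 (gap 0.897 of the range). These 3 share the UCP1 value of 1 library and are the only ones among 24 groups of 4 values examined, of which chance flags about 1 in 20. MC 2 also had the highest mitochondrial share of all libraries, 43.5% of TPM.

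The response of the ratio of UCP1 to FABP4 to growth restriction differed between the sexes by −1.93 on the log2 scale (MFGR against MC minus FFGR against FC). Its p was 0.00122 by exact permutation of sex within condition (adjusted p = 0.0514 over 42 tests). The ratio was lower in MFGR than in MC by means of 0.419 and 0.815, and higher in FFGR than in FC by means of 1.09 and 0.588. On the log2 scale the interaction was 0.34 for UCP1 and 2.26 for FABP4 (limma, adjusted p = 0.796 and 0.272). By these estimates the interaction of the ratio lay in FABP4, its denominator. The estimate for UCP1 had the same sign as that for FABP4 and the opposite sign to that of the ratio. Neither of them passed the threshold on its own. What underlies the difference in the ratio was not tested.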

How the results depend on the processing

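No comparison of UCP1 was called under any of the alternatives, leave-one-out included. The log2 fold change over the libraries left out in turn ranged from 0.09 to 0.54 in MFGR against MC, −0.27 to 0.18 in FFGR against FC, −0.77 to −0.20 in MC against FC, −0.31 to 0.0431 in MFGR against FFGR, −0.0134 to 0.22 for growth restriction over both sexes, −0.45 to −0.17 for male against female and 0.07 to 0.63 for the interaction. The sign turned without FC 3 or FFGR 1 in FFGR against FC, without MFGR 3 or FFGR 4 in MFGR against FFGR, and without MC 3, FC 2 or FFGR 4 for growth restriction over both sexes. Median-of-ratios scaling gave 0.0606 in MFGR against FFGR, and for growth restriction over both sexes quantile normalization gave −0.0472 and TPM rescaled without the mitochondrial transcripts gave −0.0013. The cause was not tested.

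The sample titles do not say that replicate numbers pair the libraries. Of 24 same-numbered pairs, 6 had deviations with a correlation over 0.1, in a range from −0.214 to 0.271. Pairs of unlike number were not set beside them, so this does not decide whether the numbers pair libraries. With a replicate block UCP1 was at 0.24 in MFGR against MC (adjusted p = 0.761) and −0.47 in MC against FC (adjusted p = 0.293), and no call changed.

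In MFGR against MC the 1 thermogenesis member that rose became 0 with quantile normalization and with a 1 TPM filter, and the 1 that fell became 0 with these and with median-of-ratios scaling. Ratios with an adjusted p under 0.05 ranged from 0 to 1 over the libraries left out, the 1 being the interaction in UCP1 to FABP4 without MC 1 or without FC 2. Ratios whose sign turned with 1 library left out ranged, for UCP1 to ADIPOQ, from −0.50 to 0.23 in FFGR against FC and from −0.70 to 0.0511 in MC against FC, for UCP1 to CIDEA from −0.51 to 0.12 in MC against FC, and for UCP1 to the mitochondrial transcripts from −0.27 to 0.26 in FFGR against FC.

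The count of transcripts correlated with UCP1 became 1 with TPM rescaled without the mitochondrial transcripts, FABP4 with r = 0.78 (adjusted p = 0.0365). With group means kept, r turned to 0.17 for CIDEA, 0.19 for HOXC9 and 0.0105 for the minor THY1 transcript, and 5 of the 11 mitochondrial transcripts were positive. For CIDEA it was also 0.0824 by Spearman, 0.16 in rescaled TPM, 0.42 without MC 3 and FC 3, and 0.0956 without MC 2 and FC 3, where leptin turned to −0.21. With 4 fetuses a group and no read counts, precision is set by the spread between fetuses, which for UCP1 leaves wide intervals.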
